A study of Mus musculus with 6 samples.

Results

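The 26S proteasome genes were followed in mouse embryos at embryonic day 10.5, in tissue cut from both sides of the dorsal aorta. Members were all measured genes whose platform symbol begins with Psm, a letter from a to g and a number, without pseudogenes. The rule took 48 of 24675 genes, and every one had 1 probe set. The dorsal group was 3 arrays of tissue from above the aorta, up to the notochord. The ventral group was 3 arrays of tissue from beneath the vessel. All embryos were of the C57Bl/6 strain, and the labels name no treatment, transgene or mutant allele. Both regions were cut by laser microdissection from cryosections of the same embryos. The regions were taken by position, so each holds several cell types. The labels number 3 biological replicates per region and do not say how many embryos or sections entered each. Each value is a log2 RMA signal, so that 1 unit is a doubling.

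The proteasome is the main protease of the cytosol and nucleus and degrades proteins tagged with ubiquitin chains. Its barrel-shaped 20S core is built of outer rings of alpha subunits (Psma genes) and inner rings of beta subunits (Psmb genes), and some beta subunits carry the cutting sites. The 19S cap binds tagged proteins, removes the ubiquitin and unfolds the chain with a ring of ATPases (Psmc genes) and a set of non-ATPase subunits (Psmd genes). Other activators (Psme genes), an inhibitor (Psmf1) and assembly chaperones (Psmg genes and a few Psmd genes) complete the family. Dividing embryonic tissue relies on it to remove cyclins and signalling proteins.

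The members divided into 7 alpha and 5 beta subunits of the constitutive core, 5 tissue-restricted core subunits, 17 cap subunits, 5 regulators and 7 assembly chaperones. The remaining 2, Psmc3ip and Psme3ip1, belong to none of these classes and encode proteins named as partners of a proteasome protein. Psmb3, Psmb5 and Psme2b were not analysed here. The median of the members' 6-array means was 4.16, against 3.24 over all genes. A total of 10 members had a mean of 5 or more, and 8 had a mean below the median of all genes, where signal cannot be told from background without detection calls. On each array between 37 and 43 of the 48 members exceeded that array's median.

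In the arrays as a whole the labelled tissues were weakly marked. Of 9 notochord and sclerotome markers 8 were measured. All 8 had lower ventral than dorsal means, with a median log2 difference of -0.26, and their summed log2 signal was 30.8 to 33.9 dorsally and 29.9 to 30.3 ventrally. The 8 ventral mesoderm markers had a median of -0.03, with sums of 30.3 to 33.3 and 31.5 to 33.3. Of 7 endothelial markers 5 had means below the median of all genes, Pecam1 among them. Red cell signal varied between arrays, and the summed log2 signal of 7 erythroid markers was 44.5, 45.4 and 55.7 dorsally and 39.1, 49.6 and 57.8 ventrally. All 7 immediate early genes had lower ventral means (median -0.26), with sums of 24.8 to 29.4 dorsally and 23.1 to 25.2 ventrally. Tissue handling can raise such genes, and whether it did here was not tested. The part of these markers in the results that follow was not tested. In tissue of this kind fewer cells of a type and less RNA per cell cannot be told apart.

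Ventral and dorsal tissue did not differ in any proteasome gene past an adjusted p of 0.05 in limma, and the lowest adjusted p of a member was 0.435. Over all genes the share called was 0%, and in limma without the replicate block it was 0.00405% (1 gene, no member). The positive and negative differences were 32 and 16, so 66.7% were positive, against 42.0% of all genes. That share was 49.1% of genes at or above the median mean and 56.2% of genes with a mean of 5 or more. The median log2 difference, ventral minus dorsal, was 0.08 over the 48 members and -0.06 over all genes. It was -0.01 over genes at or above the median mean and 0.08 over genes with a mean of 5 or more. At an unadjusted p under 0.05, 6 members stood out in limma with the replicate block, against 10.2% of all genes and 24.1% of genes with a mean of 5 or more. The members' share was 12.5%, near the share of all genes. Without the block 5 members did, against 11.2% of all genes. Psmd1, Psmc5 and Psmg4 stood out in both fits, Psmd7, Psmc4 and Psmd6 only with the block, and Psmc2 and Psmd12 only without it. An absolute log2 difference of at least 1 was found for 2 members, Psmd7 and Psmd14, and for 2.17% of all genes. The arrays of the groups did not overlap for 6 members, and all 6 were higher in ventral tissue. Over all genes 6.74% were separated in that direction and 12% in the other, and among genes with a mean of 5 or more 13.2% were higher in all ventral arrays. The median half-width of the members' 95% intervals in limma with the block was 0.55 on the log2 scale. Differences smaller than that mostly could not reach an unadjusted p under 0.05 with 6 arrays. The adjusted threshold asks for more, and Psmd7 did not pass it at a difference of 1.47. With 3 against 3 arrays an exact two-sided permutation test of 1 gene cannot give a p below 0.1.

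**Figure D1:**
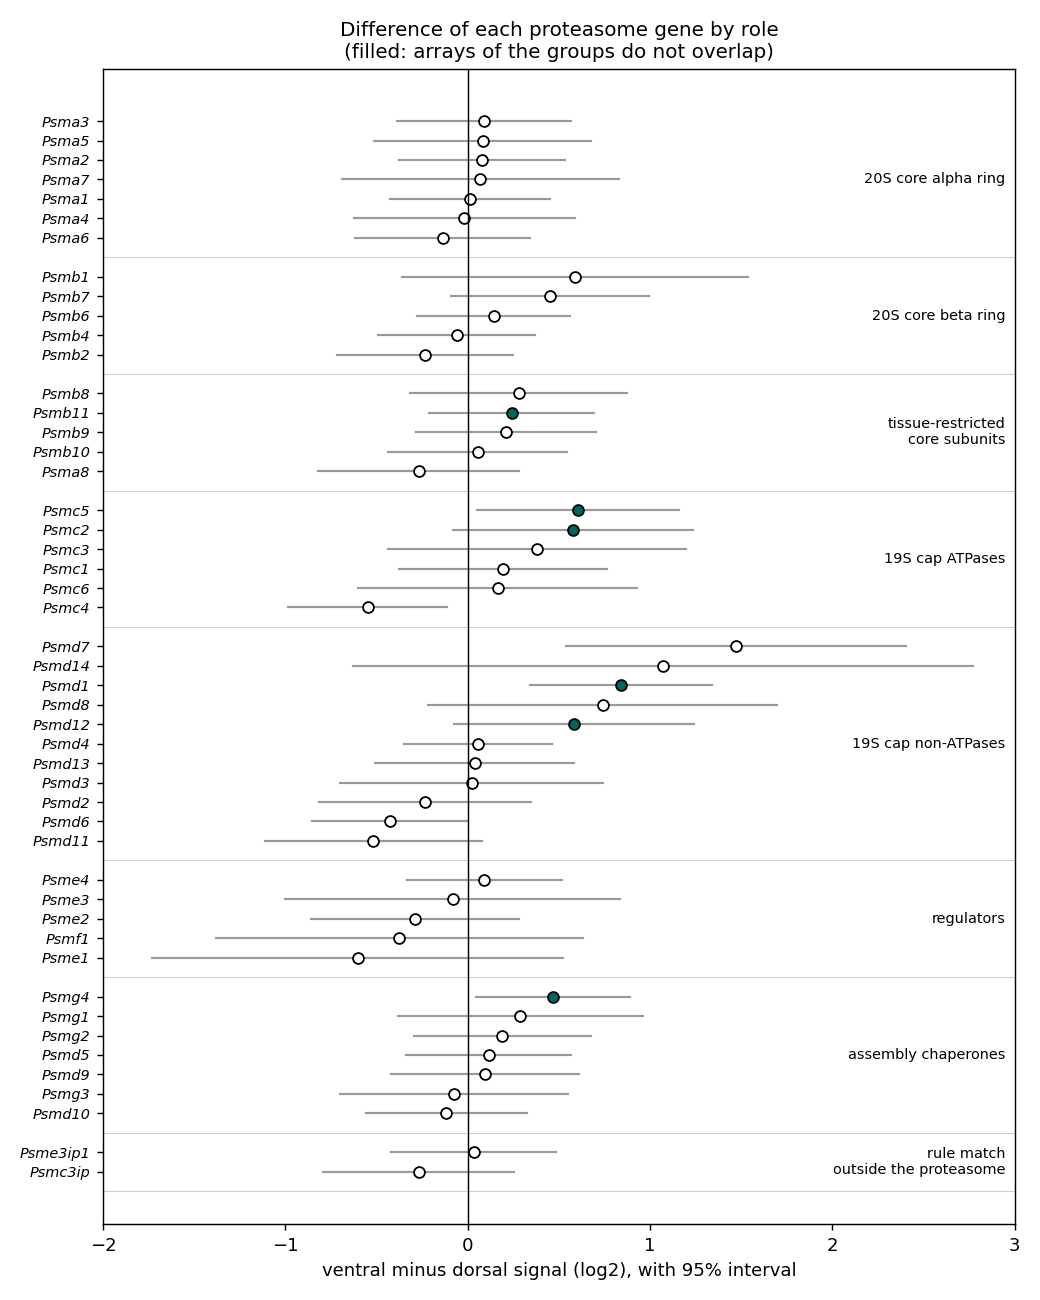
Log2 difference, ventral minus dorsal, of each of the 48 genes (circles) with its 95% interval from limma with the replicate block (lines), grouped by role. Filled circles are the 6 genes whose dorsal and ventral arrays did not overlap, 4 of them in the 19S cap, and the alpha ring lies between -0.14 and 0.09.

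The alpha ring, which closes the ends of the barrel and gates entry, differed little on average between the regions. The log2 differences of its 7 genes lay between -0.14 (Psma6) and 0.09 (Psma3), with a median of 0.07. None had an unadjusted p under 0.05 in limma, and none was separated between groups. Psma2 had dorsal values of 5.92, 5.56 and 5.55 and ventral values of 5.72, 5.79 and 5.75. The ventral arrays of Psma2 fell within the dorsal range, and the 95% interval of the difference was -0.38 to 0.53. Psma7 had 6.69, 5.50 and 6.41 dorsally and 6.35, 6.45 and 6.01 ventrally. Its dorsal array 2 was the low one. Psma3 and Psma6 ranged over the 6 arrays from 4.93 to 5.50 and from 3.99 to 4.91, and Psma4 from 3.71 to 4.63. Psma1 (3.05 to 3.29) and Psma5 (1.99 to 2.80) were dim. For all 7 alpha genes the dorsal standard deviation was larger than the ventral one, and the ventral one was the lower for 16289 of all 24675 genes.

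In the beta ring the subunits Psmb6 and Psmb7 carry the caspase-like and the trypsin-like cutting sites. Psmb6 had dorsal values of 5.56, 5.54 and 5.31 and ventral values of 5.57, 5.75 and 5.52. It was higher in ventral tissue in all 3 pairs of equal number, by 0.14 on average, and the groups overlapped by a narrow margin (95% interval -0.28 to 0.56). Psmb7 had 3.89, 3.55 and 3.89 dorsally and 3.85, 4.26 and 4.58 ventrally. Ventral arrays 2 and 3 were above every dorsal array and ventral array 1 was not, with a log2 difference of 0.45 ± 0.22 (SE) and a limma adjusted p of 0.533. Psmb1, a structural beta subunit, had 4.50, 6.46 and 4.57 dorsally and 4.31, 6.67 and 6.31 ventrally. These values fell near 4.5 or near 6.5 with none between, and dorsal array 2 was in the upper set. Psmb2 was lower in ventral tissue in all 3 pairs, by -0.23 on average, with values from 4.33 to 5.06. Psmb4 ranged from 3.90 to 4.25.

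Among the tissue-restricted core subunits, Psmb8, Psmb9 and Psmb10 replace constitutive catalytic subunits in the interferon-inducible immunoproteasome. Psmb8 had dorsal values of 3.38, 3.83 and 4.12 and ventral values of 4.24, 3.87 and 4.04. Psmb9 had 3.43, 3.73 and 3.76 dorsally and 4.02, 3.72 and 3.80 ventrally. For both genes dorsal array 1 was the lowest and ventral array 1 the highest. The differences were 0.28 (95% interval -0.31 to 0.87) and 0.21 (-0.29 to 0.70). Psmb10 had 3.46, 4.12 and 3.68 dorsally and 3.76, 3.80 and 3.86 ventrally, a difference of 0.05. Psmb11, the thymus-specific catalytic subunit, had 2.76, 2.98 and 2.82 dorsally and 3.24, 3.00 and 3.05 ventrally. The groups of Psmb11 did not overlap, by a gap of 0.02, at signals below the median of all genes. Psma8, the alpha subunit of the testis, ranged from 2.51 to 3.50 and was also dim.

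**Figure D2:**
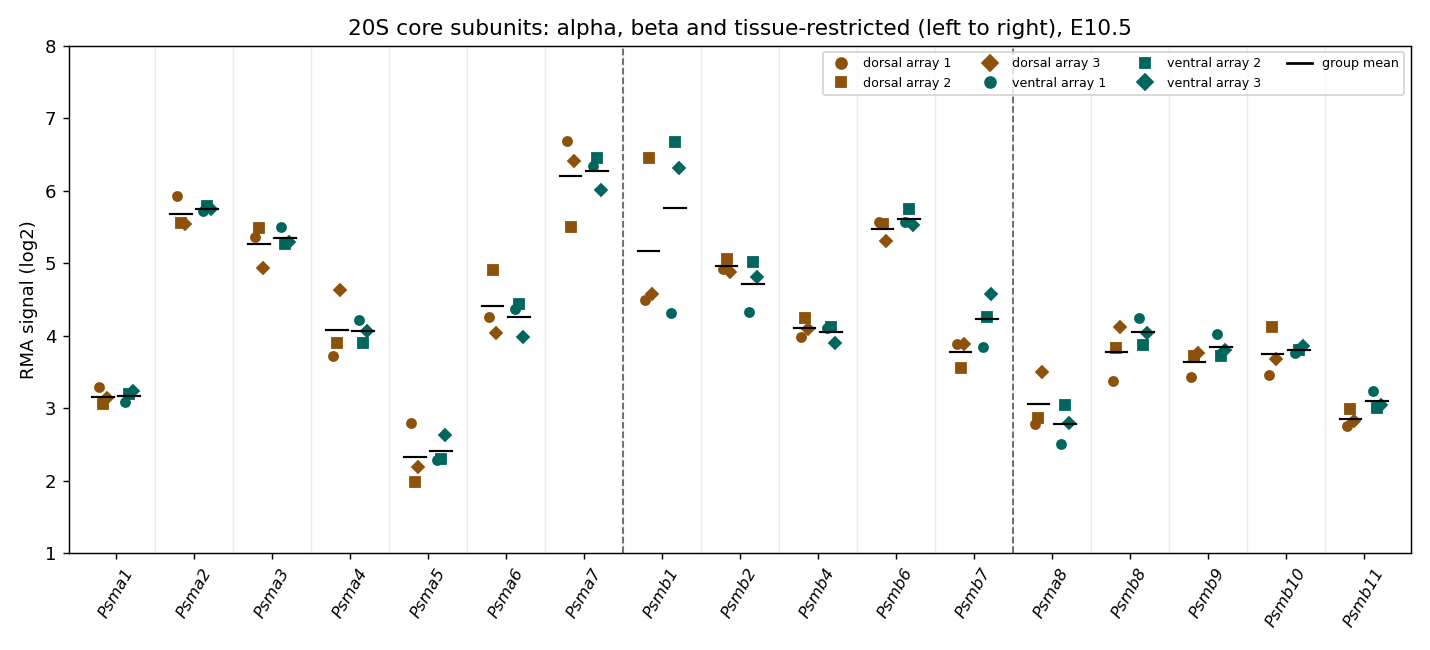
RMA signal (log2) of each 20S core gene on each array, with dorsal arrays in brown, ventral arrays in green, a marker shape for each replicate number and a bar at each group mean. Brown and green points overlap for every gene except Psmb11.

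Antigen presentation and interferon genes were read beside the immunoproteasome. Of 12 listed 11 were measured, 5 with a positive and 6 with a negative difference (median -0.04). Only H2-D1 among the 11, a class I histocompatibility chain, had an unadjusted p under 0.05, with 4.63, 4.28 and 3.90 dorsally and 5.95, 4.71 and 6.33 ventrally and a limma adjusted p of 0.437. H2-D1 has close sequence relatives, so its signal is uncertain. Ifng, the inducer of these subunits, had 2.60 to 2.70 dorsally and 2.12 to 2.51 ventrally, below the array medians. The 7 leukocyte markers had summed log2 signals of 25.4 to 25.9 dorsally and 26.0 to 26.9 ventrally, which did not overlap. Of these 7, 3 were positive and 4 negative, with a median of -0.01 and differences from -0.34 to 0.71. None of the 7 was separated with ventral tissue higher and 1 was with dorsal tissue higher, against 6.74% and 12% of all genes. The defining marker Ptprc lay between 2.75 and 3.40.

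The 19S cap held most of the members with an unadjusted p under 0.05, and these differed in direction. Of its 17 genes 13 had a positive and 4 a negative difference, and the median was 0.19. In limma with the block 5 had an unadjusted p under 0.05, 3 higher and 2 lower in ventral tissue. This is 29.4% of the cap in both directions together, against 10.2% of all genes. By direction, 4.32% of all genes were higher and 5.90% lower in ventral tissue at that p. In both directions together the share was 11.7% of genes at or above the median mean, where all 17 cap genes lay. It was 24.1% of genes with a mean of 5 or more, a mean that 3 of the 17 reached. The ventral-higher share of all genes at that p was 42.2%, and it became 52.4% with cyclic loess and 53.5% with median centring of the arrays. The groups of 4 cap genes did not overlap, all higher in ventral tissue. In that direction 6.74% of all genes were separated, and 13.2% of genes with a mean of 5 or more. In the constitutive core 0 of 12 genes met either condition in limma with or without the block, with a median of 0.07. The difference between cap and core was not tested. The medians of the cap by pair of equal number were 0.09, 0.10 and 0.02, and those of the core -0.12, 0.18 and 0.15. In fits without the block that left out 1 array, the cap median was 0.41 without dorsal array 1, 0.40 without ventral array 3, 0.30 without dorsal array 2 and 0.11 without ventral array 1. It was 0.065 without both arrays numbered 1.

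The non-ATPase Psmd1, the large scaffold that holds part of the cap together, had the smallest p of the members with the replicate block, while Psmg4 (0.0119) and Psmc5 (0.0266) had smaller p than Psmd1 in limma without it. Its dorsal values were 3.57, 2.34 and 3.08 and its ventral values 4.21, 3.58 and 3.72. All ventral arrays lay above all dorsal arrays, but ventral array 2 exceeded dorsal array 1 by only 0.01. Dorsal arrays 2 and 3 of Psmd1 lay below the medians of all genes on those arrays (3.27 and 3.27). At that level signal cannot be told from background without detection calls, so the size of the difference is uncertain. The log2 difference was 0.84 ± 0.20 (SE), a 1.79-fold higher ventral signal, with an unadjusted limma p of 0.0065 with the block and 0.0344 without it and adjusted p of 0.435 and 0.414. Psmd7, a lid subunit that pairs with the deubiquitinase Psmd14, had 4.80, 2.77 and 3.59 dorsally and 6.38, 5.18 and 4.02 ventrally. The groups overlapped, since ventral array 3 lay below dorsal array 1, and each ventral array was above the dorsal array of the same number. Dorsal array 2 of Psmd7 also lay below its array median (3.27). The difference was 1.47 ± 0.38, a 2.77-fold higher ventral signal, with an unadjusted limma p of 0.0086 with the block and 0.0621 without it. The rank of Psmd7 therefore depends on the uncertain pairing.

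Psmd14 itself, which cuts ubiquitin chains from the substrate, had 3.75, 6.62 and 4.81 dorsally and 7.08, 6.62 and 4.69 ventrally. The mean difference of 1.07 came from the pair numbered 1, and the other two pairs were level. Without both arrays numbered 1 the difference was -0.060. Psmd12, a lid subunit, had 3.93, 3.85 and 3.25 dorsally and 4.02, 4.23 and 4.53 ventrally. Its groups did not overlap, by a gap of 0.09, and the difference was 0.58 (95% interval -0.08 to 1.24). Psmd8, another lid subunit, had 3.79, 4.0 and 3.81 dorsally and 4.50, 5.78 and 3.53 ventrally. Ventral array 2 was high and ventral array 3 was the lowest of the 6.

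Lid subunits with lower ventral signal were Psmd6 and Psmd11. Psmd6 had 4.97, 4.25 and 4.85 dorsally and 4.72, 3.75 and 4.33 ventrally. It was lower in ventral tissue in all 3 pairs, by -0.43 ± 0.17 on average, and the groups overlapped. Its unadjusted limma p was 0.0498 with the block and 0.190 without it. Psmd11 had 4.63, 4.43 and 3.75 dorsally and 4.16, 3.38 and 3.72 ventrally, with a difference of -0.52 (95% interval -1.11 to 0.08). The ubiquitin receptor Psmd4 was the most even gene of the cap, with 3.46 to 3.72 over the 6 arrays and an interval of -0.35 to 0.46. Psmd2, Psmd3 and Psmd13 had differences of -0.24, 0.02 and 0.04.

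The ATPases form the ring that threads substrates into the core. Psmc5 had dorsal values of 4.34, 5.09 and 4.76 and ventral values of 5.30, 5.20 and 5.51. Every ventral array lay above every dorsal array, by a gap of 0.10. The difference was 0.60 ± 0.22, a 1.52-fold higher ventral signal, with an unadjusted limma p of 0.0373 with the block and 0.0266 without it and adjusted p of 0.472 and 0.398. Psmc2 had 4.50, 4.79 and 4.14 dorsally and 4.89, 4.87 and 5.40 ventrally. These groups were separated by 0.07, with a difference of 0.58 (95% interval -0.08 to 1.24). Psmc4 ran in the other direction, with 4.29, 4.94 and 4.82 dorsally and 3.79, 4.54 and 4.06 ventrally. It was lower in ventral tissue in all 3 pairs, by -0.55 ± 0.18, with an unadjusted limma p of 0.0218 with the block and 0.0665 without it. Psmc1 and Psmc3 had differences of 0.19 and 0.38. Psmc6 had 6.33, 3.88 and 3.67 dorsally and 5.61, 4.58 and 4.18 ventrally. Both arrays numbered 1 were high for Psmc6, and the mean difference was 0.16.

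**Figure D3:**
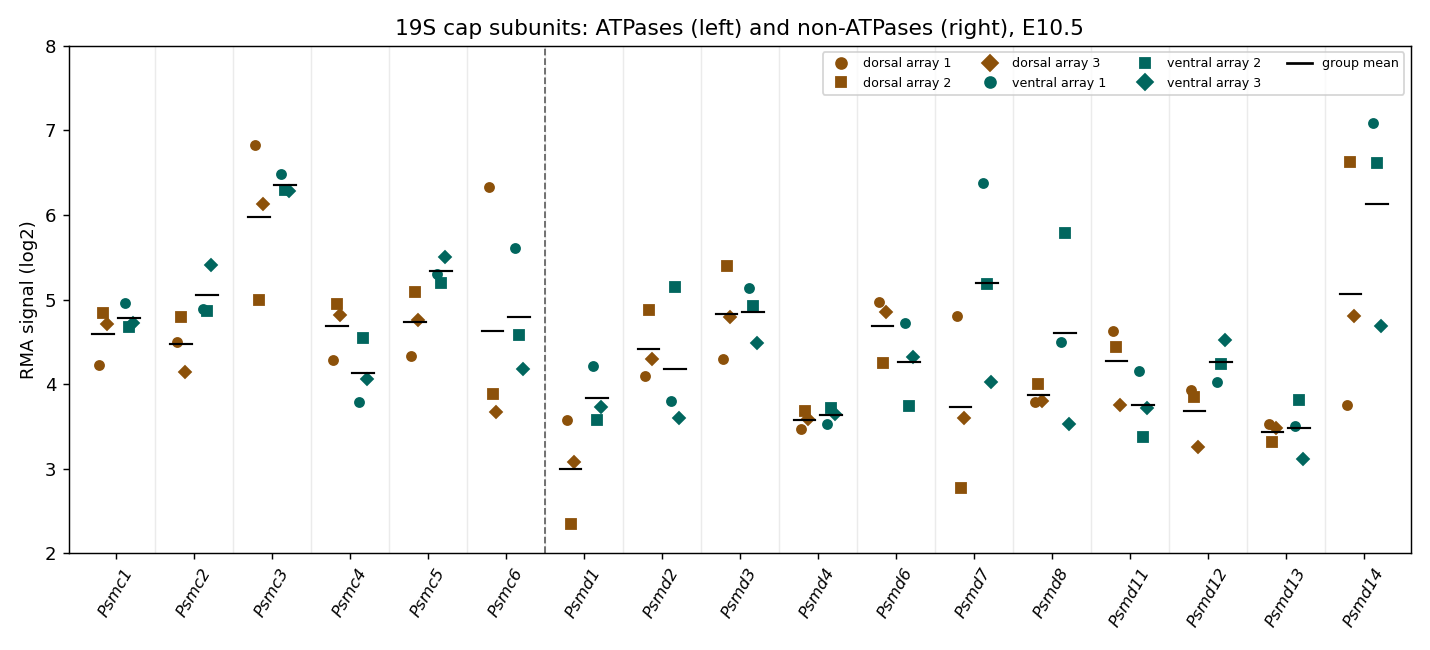
RMA signal (log2) of each 19S cap gene on each array, with dorsal arrays in brown, ventral arrays in green, a marker shape for each replicate number and a bar at each group mean. Psmc2, Psmc5, Psmd1 and Psmd12 have every green point above every brown point, and Psmc6, Psmd7, Psmd8 and Psmd14 spread over more than 2 units.

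Spread between arrays was wide in the cap. A range of at least 2 log2 units over the 6 arrays was found for 5 members, Psmd7 (3.61), Psmd14 (3.33), Psmc6 (2.67), Psmb1 (2.36) and Psmd8 (2.25), of which 4 belong to the cap. This is 10.4% of the members and 23.5% of the cap. Over all genes 4.11% and over genes with a mean of 5 or more 26.3% had such a range. The median range was 1.26 in the cap, 0.77 in the core and 0.72 over all genes. It was 0.77 over genes at or above the median mean and 1.27 over genes with a mean of 5 or more. The median standard deviation of the members was 0.36 among dorsal and 0.24 among ventral arrays. The ventral one was the lower for 35 of 48 members. Over all genes the medians were 0.26 and 0.18, and the ventral one was the lower for 16289 of 24675 genes.

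Each gene was also expressed as the deviation from its own 6-array mean, which allows classes to be read on 1 scale. The median deviation of the cap was -0.12, 0.03 and -0.26 on dorsal arrays 1, 2 and 3 and 0.27, 0.14 and -0.29 on ventral arrays 1, 2 and 3. Ventral array 3 was thus the lowest of the 6 for the cap, and the groups overlapped. The core had -0.14 to 0.04 on the dorsal and -0.01 to 0.09 on the ventral arrays, which overlapped too. Over all genes the medians lay between -0.06 and 0.02. The regulators had 0.66 on dorsal array 3 and -0.23 to 0.11 on the other arrays. Dorsal array 3 had the highest immediate early sum of the 6 arrays (29.4) and the highest dorsal erythroid sum (55.7). Ventral array 3 had the highest erythroid sum of the 6 (57.8), and the regulators were lowest there (-0.23). A relation to these sums was not tested.

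**Figure D4:**
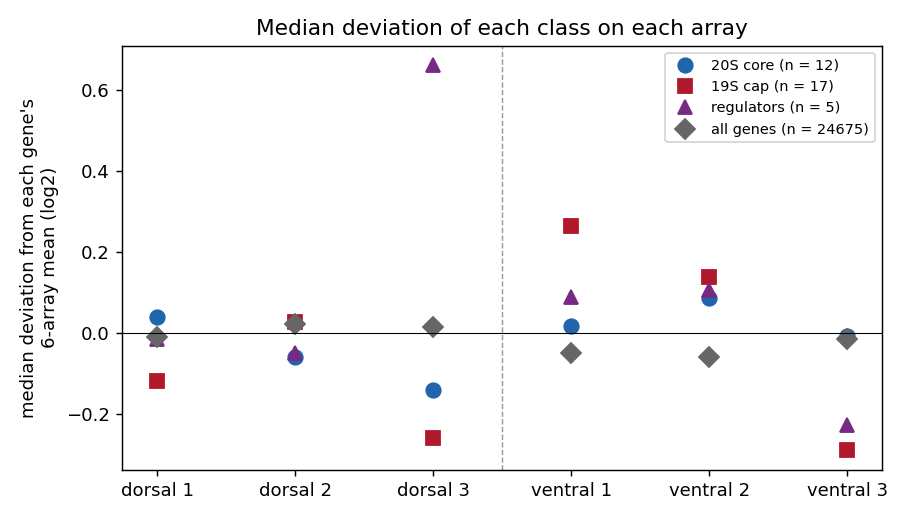
Median over the genes of each class of the deviation from the gene's own 6-array mean (log2), on each of the 6 arrays. The 19S cap is highest on ventral array 1 (0.27) and lowest on ventral array 3 (-0.29), the 20S core stays between -0.14 and 0.09, and the regulators stand at 0.66 on dorsal array 3.

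None of the 5 regulators had an unadjusted p under 0.05 in limma. Of these genes 4 had a negative difference and the median was -0.29. The medians by pair of equal number were 0.01, -0.00 and -1.09, so the negative median rested on the arrays numbered 3, and no regulator was lower ventrally in all 3 pairs. Psme1 and Psme2 encode the paired subunits of the interferon-inducible activator of the core. Psme1 had 7.01, 5.88 and 7.37 dorsally and 6.29, 6.58 and 5.58 ventrally, a difference of -0.60 (95% interval -1.73 to 0.52). Psme2 had 3.35, 3.77 and 3.89 dorsally and 3.61, 3.23 and 3.29 ventrally, a difference of -0.29 (-0.86 to 0.28). The groups overlapped for both. The core inhibitor Psmf1 had 3.56, 4.01 and 5.18 dorsally and 4.40, 3.31 and 3.91 ventrally, with dorsal array 3 high. Psme3, the nuclear activator, ranged from 2.31 to 3.73. Psme4, the large activator that acts without ubiquitin, ranged from 4.75 to 5.27 and had a difference of 0.09.

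Among the assembly chaperones 5 of 7 had a positive difference, with a median of 0.11. Psmg4, which helps to build the alpha ring as the partner of Psmg3, had 3.31, 3.27 and 3.19 dorsally and 3.68, 3.68 and 3.80 ventrally. Both groups were tight, and the gap of 0.37 between them was the largest of any member. The dorsal values lay close to the medians of all genes on those arrays (3.24, 3.27 and 3.27), where signal is uncertain without detection calls. The difference was 0.47 ± 0.17, with an unadjusted limma p of 0.0355 with the block and 0.0119 without it and adjusted p of 0.469 and 0.350. Its partner Psmg3 did not separate the regions, with 4.80, 5.13 and 4.24 dorsally and 4.52, 4.62 and 4.80 ventrally. Psmg1 and Psmg2, the other pair of alpha ring chaperones, had differences of 0.29 and 0.19. Psmd5, Psmd9 and Psmd10, which guide the ATPase ring, had 0.11, 0.10 and -0.12. The symbol matches that belong to no class, Psmc3ip (3.39 to 5.16) and Psme3ip1 (3.61 to 4.01), had differences of -0.27 and 0.03.

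Other genes of the pathway, from a list that the symbol rule did not make, did not differ past the threshold either. Of 20 further proteasome genes 16 were measured, 10 with a positive and 6 with a negative difference and a median of 0.05. The groups did not overlap for 2 of the 16, both higher in dorsal tissue. Over all genes 12% were separated in that direction and 6.74% in the other. Among these 16 the gene with an unadjusted p under 0.05 was Txnl1, a thioredoxin-like protein bound to the cap, at 4.11, 3.90 and 6.63 dorsally and 6.02, 5.77 and 7.0 ventrally. Its unadjusted limma p was 0.00715 with the block and 0.0892 without it. Nfe2l1, the transcription factor that raises proteasome genes when the proteasome is impaired, had 3.44 to 4.07 dorsally and 3.98 to 4.0 ventrally. The cap subunit Sem1 had 7.30 to 7.90 and 7.29 to 7.70. Of 7 genes around the segregase Vcp, which extracts ubiquitin-tagged proteins, 5 were positive (median 0.07) and none had an unadjusted p under 0.05 in limma, with Nsfl1c (0.50) and Ufd1 (0.84) at the smallest p. Of 6 ubiquitin and activating enzyme genes only Uba6 was measured, with -0.37.

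Promoter sequences from RefSeq on build GRCm38.p6 were found for 40 of the 48 members, which have 44 listed promoters. The windows hold the 250 bases before each start. Those of the members with an unadjusted p under 0.05 are shown, to set genes that were higher in ventral tissue (Psmd1, Psmc5, Psmg4) beside genes that were lower (Psmc4, Psmd6), and Psmd7 is named only. Capitals mark the letters GGGCGG (Sp1 box) or CCGGAAG (ETS site), read on either strand. In the printed windows no 2 matches overlap, and neither CCAAT (NF-Y box) nor TGACNNNGC (the type of element bound by Nfe2l1 and Nfe2l2) occurs.
Psmd1, chr1:86064369-86064618, plus strand: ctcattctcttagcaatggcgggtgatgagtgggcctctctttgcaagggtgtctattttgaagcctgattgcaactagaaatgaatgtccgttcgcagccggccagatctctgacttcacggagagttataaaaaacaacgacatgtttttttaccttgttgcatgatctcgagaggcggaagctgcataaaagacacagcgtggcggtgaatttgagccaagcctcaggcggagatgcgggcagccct
Psmc5, chr11:106255935-106256184, plus strand: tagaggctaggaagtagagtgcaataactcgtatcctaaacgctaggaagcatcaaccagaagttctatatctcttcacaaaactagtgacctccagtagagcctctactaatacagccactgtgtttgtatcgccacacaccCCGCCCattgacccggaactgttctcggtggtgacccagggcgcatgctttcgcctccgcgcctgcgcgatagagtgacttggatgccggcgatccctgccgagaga
Psmg4, chr13:34162714-34162963, plus strand: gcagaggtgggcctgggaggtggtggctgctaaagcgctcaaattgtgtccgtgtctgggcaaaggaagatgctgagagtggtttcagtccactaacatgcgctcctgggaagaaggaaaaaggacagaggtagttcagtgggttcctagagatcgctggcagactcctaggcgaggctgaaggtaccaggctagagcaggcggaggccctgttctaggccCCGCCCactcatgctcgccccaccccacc
Psmc4, chr7:28050093-28050342, minus strand: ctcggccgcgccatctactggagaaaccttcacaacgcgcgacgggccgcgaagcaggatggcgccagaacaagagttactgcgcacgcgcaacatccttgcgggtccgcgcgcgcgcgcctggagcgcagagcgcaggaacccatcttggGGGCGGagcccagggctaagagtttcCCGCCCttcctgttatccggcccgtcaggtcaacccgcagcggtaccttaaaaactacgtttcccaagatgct
Psmd6, chr14:14120946-14121195, minus strand: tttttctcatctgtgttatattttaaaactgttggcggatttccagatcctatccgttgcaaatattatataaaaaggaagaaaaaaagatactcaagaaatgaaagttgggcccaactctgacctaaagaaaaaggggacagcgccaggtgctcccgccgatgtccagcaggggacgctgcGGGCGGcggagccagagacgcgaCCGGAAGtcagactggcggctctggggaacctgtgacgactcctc

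The Psmd1 window held none of the 4 motifs. Psmc5 held the Sp1 letters at 107 bases and Psmg4 at 29 bases before the start. Psmc4 held them at 99 and 73 bases, and Psmd6 held them at 68 bases beside ETS letters at 45 bases. The Sp1 letters thus occurred in genes of both directions, and the ETS letters only in Psmd6. Psmc4 and Psmd6, lower in ventral tissue, each held more matches than Psmd1, Psmc5 or Psmg4. With 5 genes picked by p, a relation of the motifs to direction was not tested.

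Over the whole family the ETS letters were found in 14 of 44 member promoters, 31.8%, against 6.91% of 32851 listed promoters and 13.7% of 805 promoters of genes with a mean of 5 or more. They were in 9 of 15 cap promoters and in 1 of 10 core promoters. The cap genes with the letters were Psmc1, Psmc2, Psmc6, Psmd2, Psmd4, Psmd6, Psmd11 and Psmd12, and Psmc2 had them in both listed promoters. These 8 genes included ones higher in ventral tissue without overlap (Psmc2, Psmd12) and ones with negative differences (Psmd2, Psmd6, Psmd11). The Sp1 letters were in 54.5% of member promoters, 32.7% of all promoters and 52.5% of those of genes with a mean of 5 or more. The NF-Y letters were in 34.1% and 33.8% of member and all promoters, and TGACNNNGC was in 9.09% and 10.2%. These are letter matches in a window and were not tested as binding sites.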

How the data were processed

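Transcripts were hybridised to Affymetrix Gene 2.0 ST mouse arrays, 3 per region, from 200 to 1000 pg of RNA amplified by single primer isothermal amplification, per the labels' protocols. The values deposited by the authors are log2 signals. The submitters' processing notes give Affymetrix Expression Console and RMA with no version, and the log base was taken from the values (0.97 to 12.9). RMA brings all arrays to a common distribution, which hides a shift shared by most genes. Of 25429 probe sets 24675 had 1 gene symbol and were analysed, and the platform annotation did not list the other 754.

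The regions were compared with limma 3.58.1 (R 4.3.3) over all 24675 genes, two-sided, with Benjamini-Hochberg adjustment and the replicate number as a block, because both regions came from the same embryos. The labels do not say that equal numbers are the same embryo, and the deviations of same-numbered arrays correlated at 0.04, -0.01 and 0.06 across genes, so p-values without the block stand beside the main ones. The p-values reflect only the spread among these 6 samples, and precision is limited by their number. Signals of different probe sets were compared only to place members among all genes and to mark dim ones, not as amounts of transcript. The procedure was tested on simulated data. The members and lists were chosen with earlier results of these data known. All 6 array values are given for members with an unadjusted p under 0.05 or a log2 difference of at least 1 and for catalytic subunits. Values of other members shown by array, and of Nfe2l1, Sem1, Ifng, Ptprc and Pecam1, were chosen after they were seen. Of other pathway lists, up to 4 genes with an unadjusted p under 0.05, or the 2 with the smallest p, are named. Alternatives were cyclic loess, median centring, filters on dim genes, array weights, a variance trend, the fit without the block, and leaving out arrays.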

Additional observations from a re-analysis of the deposited data

How the results depend on the processing

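Without the replicate block 1 gene passed the adjusted threshold in limma in place of 0, and 5 members in place of 6 had an unadjusted p under 0.05, so the pairing by number changed no member's adjusted call. Same-numbered deviations were not correlated over all genes, and over the 48 members the values were 0.31, 0.36 and -0.01. With genes at or above the median mean only, 1164 genes in place of 2522 had an unadjusted p under 0.05, and with genes of mean 5 or more 123 genes, 0 of 10 members, 1 separated member and a cap median of 0.60 over 3 genes were left. The same genes numbered 1440 and 267 at that p in the fit over all genes, so refitting also removed calls, Psmc5 among them, and the cause was not tested. Cyclic loess and median centring moved the median of all genes from -0.06 to -0.00 and -0.02, the cap median from 0.19 to 0.16 and 0.24 and the core median from 0.07 to 0.01 and 0.12. The ventral share of genes with an unadjusted p under 0.05 was 42.2%, and 52.4% and 53.5% after these. Leaving out arrays, singly without the block or by number with it, gave 0 to 5 genes past the adjusted threshold, 1847 to 3235 genes and 2 to 6 members at an unadjusted p under 0.05, cap medians of 0.065 to 0.41 and core medians of -0.01 to 0.17. The lowest member counts were 2 without dorsal array 3 and 3 without ventral array 3, and the core median was -0.01 without both arrays numbered 2. Separated members numbered 9 to 18, since fewer arrays separate more easily. Psmd14 ranged from -0.060, without both arrays numbered 1, to 1.85. The other members with an unadjusted p under 0.05, and the other separated members, kept the sign of their difference in every alternative that measured them. Detection calls were not used here, so dim members were not shown to be above background.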

Other observations

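The following genes were picked after their values were seen. Pomp, the maturation factor of the core, had 7.57, 2.35 and 2.65 dorsally and 3.11, 6.31 and 3.09 ventrally. Dorsal array 1 and ventral array 2 stood more than 3 log2 units above the other 4, and the mean difference was -0.02. Usp14, a deubiquitinase of the cap, had 2.74, 2.86 and 4.03 dorsally and 3.62, 5.09 and 2.92 ventrally, with ventral array 2 the highest. Akirin2, which helps bring proteasomes into the nucleus, had 7.28, 3.46 and 4.44 dorsally and 5.99, 4.42 and 3.66 ventrally, with both arrays numbered 1 the highest.

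The probe sets left out by the rule as pseudogenes behaved unevenly too. Psma5-ps had 1.60, 2.86 and 2.17 dorsally and 6.59, 2.04 and 1.64 ventrally, with a single high value on ventral array 1, where Psma5 itself had 2.29. Psmb5-ps had 3.22, 3.03 and 2.37 dorsally and 2.26, 2.33 and 2.05 ventrally, at signals below the array medians. Its groups did not overlap. Pseudogenes resemble their parent genes in sequence, so these signals are uncertain.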
